A study of Mus musculus with 29 samples.

Results

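The genes that encode the subunits and regulators of the proteasome were followed through heart failure and recovery in the mouse heart. They were taken by symbol alone, as every row whose symbol starts with Psma, Psmb, Psmc, Psmd, Psme, Psmf or Psmg and a number, without the immunoproteasome genes Psmb8 and Psmb9. This gave 47 of the 29955 genes in the expression table. Of these, 45 had a mean of at least 0.5 FPKM (fragment counts divided by transcript length and sequencing depth) over 24 libraries and were tested. Psma8, the testis form of an alpha subunit, had a mean of 0.393 FPKM and was not tested. Psmb11, the thymus beta subunit, was listed at 0 in 23 of the 24 libraries and was not tested either. One of the 45, Psmc3ip, carries a matching symbol but encodes a factor of meiotic recombination. It was left out of all counts, with a mean of 3.61 FPKM and no call in any comparison. The 44 proteasome genes that remained were 19 of the core and its chaperones, 24 of the caps and activators, and Psmf1. Subunits with other symbols, such as Adrm1, are not among them.

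The mice were wild-type C57BL6 in the labels and C57BL/6J in the methods, 3 months old at the start and male according to the methods, and carried no transgene. Heart failure (HF) mice were given L-NAME (0.3 mg/ml), an inhibitor of nitric oxide synthesis, and NaCl (1%) in the drinking water for 5 weeks, and from the end of the first week an osmotic pump delivered angiotensin II at 0.7 mg/kg/day. Recovery mice received the same treatment and then plain water after the pump had run out, and the age-matched controls received neither agent. RNA was sequenced from ventricle at HF week 3 (2 libraries) and HF week 5 (3 libraries), at Recovery weeks 7, 9, 11, 13 and 19 of the study (2, 2, 3, 2 and 5 libraries), and at Control week 19 (5 libraries). The labels call the tissue whole ventricle or whole heart, whereas the methods describe the frozen apical portion. The week 5 controls were not analysed here. HF weeks 3 and 5 and Recovery weeks 11 and 13 were set against controls of study week 19. Recovery weeks 7 and 19 were set against HF week 5. Age and the stage of failure or recovery cannot be told apart in those comparisons. Only Recovery week 19 against Control week 19 was matched in study week. The labels do not say that each library came from a separate animal, and the p-values measure the spread between libraries.

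The proteasome is the protease that degrades proteins tagged with ubiquitin. Its barrel, the 20S core, is built from alpha rings that gate the entrance and beta rings that hold the cutting sites, and the 19S cap recognises, unfolds and feeds in the substrate. Smaller activators, the 11S rings and PA200, can take the place of the cap. In heart muscle, with its constant renewal of contractile protein, the proteasome is a main route of protein turnover, and the complex holds its subunits in fixed proportion.

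The deposited FPKM summed to between 618138 and 1332640 in a library, and the 10 most abundant genes took 14.6% to 18.8% of that sum in the libraries of weeks 5 and 19 but 27.9% to 37.4% in those of weeks 7 to 13, and 19.8% and 37.5% in libraries 1 and 2 of HF week 3. Read totals are not in the table. From the steps between low values, relative depth ran from 0.728 to 1.40 in 23 libraries, with the highest value, like the highest share of the 10 most abundant genes, in HF week 3 library 2. HF week 3 library 1 stood apart: its low values gave no depth, and only 12816 genes were detected there, compared with 16339 to 18091 elsewhere. All 10 cardiomyocyte markers were above 0 in every group, with a summed level of 26720 to 29737 FPKM in Control week 19, 21669 to 31780 FPKM in HF week 5 and 19308 to 22306 FPKM in HF week 3, where both libraries lay below every control. Of 10 markers each, none at 0 in any group, those of fibroblasts summed to 273 to 391 FPKM in the controls, 403 to 792 FPKM in HF week 5 and 817 to 940 FPKM in HF week 3. Endothelial markers summed to 333 to 412 FPKM in the controls, 456 to 584 FPKM in HF week 5 and 634 to 649 FPKM in HF week 3. Leukocyte markers summed to 110 to 221, 145 to 286 and 208 to 223 FPKM in the same order. In both heart failure groups the fibroblast and endothelial sums lay above every control, while the leukocyte sums overlapped with the controls. Cardiomyocyte sums at HF week 5 lay on either side of the control range. The part of these sums in the results below was not tested. In bulk tissue, fewer cells of a type and less RNA per cell cannot be told apart.

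In control hearts the 44 genes spanned from 4.89 FPKM for Psmf1, which encodes the proteasome regulator PI31, to 270.05 FPKM for Psmb4, a structural beta subunit. FPKM are per length of transcript, so levels of different genes can be compared. The 3 genes of the catalytic beta subunits had nearly the same level, at 239 ± 9.04 FPKM for Psmb7 (trypsin-like site), 249.9 ± 22.4 FPKM for Psmb6 (caspase-like site) and 255 ± 16.3 FPKM for Psmb5 (chymotrypsin-like site) (mean ± SD, n = 5). The 7 alpha subunits lay between 56.3 FPKM (Psma5) and 181 FPKM (Psma6). The 6 ATPases that unfold the substrate lay between 40.6 FPKM (Psmc6) and 145 FPKM (Psmc3). The 8 lid subunits among the 44 genes were lower, from 21.2 FPKM (Psmd11) to 75.2 FPKM (Psmd3). The 3 assembly chaperones of the cap were close to the bottom, from 6.65 FPKM (Psmd5) to 9.05 FPKM (Psmd9). The coefficient of variation among the 5 control libraries had a median of 9.25% over the 44 genes and of 14.1% over all 12759 genes tested.

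In several groups most of the 44 genes were highest or lowest in the same library. Recovery week 19 library 1 had the lowest value of its group in 38 of 44 genes, with a median difference from the control mean of -0.28 on the log2(FPKM + 0.5) scale. Recovery week 19 library 5 had the highest value in 36 of 44, with a median of 0.23. These were the libraries with the lowest and the highest FPKM sum of that group, 618138 and 1011550. In the controls library 5 was highest for 30 of 44 genes, with a median of 0.13, and in HF week 5 library 1 was lowest for 37 of 44, with a median of -0.17. The genes were more evenly split at HF week 3, where library 1 was higher for 26 and library 2 for 18, and at Recovery week 9, with 17 and 27. The medians of all genes tested stayed between -0.02 and 0.04 in 23 libraries and reached -0.11 in HF week 3 library 1, and whether the FPKM sum has a part in the shifts was not tested. Around its library's median, the middle range of the 44 genes (interquartile range of the differences) was 0.05 to 0.33 on the log2 scale in 23 libraries and 0.86 in HF week 3 library 1. The same range over all genes was 0.16 to 0.84 and, in that library, 1.59.

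**Figure D1:**
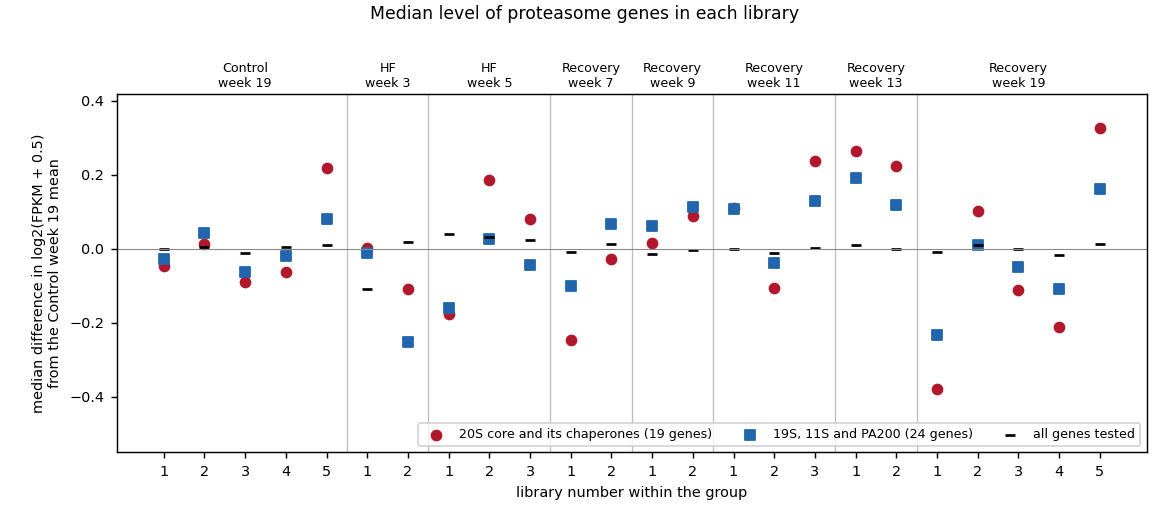
Median difference from the Control week 19 mean in each of 24 libraries (y axis, log2(FPKM + 0.5); x axis, library number in its group) for the 19 core genes (circles), the 24 cap and activator genes (squares) and all genes tested (dashes). The core medians run from -0.38 in Recovery week 19 library 1 to 0.33 in library 5 of the same group, while all genes stay near 0 except in HF week 3 library 1.

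At HF week 5, the end of the treatment, few proteasome genes differed from Control week 19, and those that did went both ways within the cap. Psmc4, an ATPase of the cap, and Psmd4, the ubiquitin receptor of its base, rose. Psmd11, a lid subunit, Psmb7, a catalytic beta subunit, and Psmd1, the large scaffold subunit of the base, fell. In limma with Benjamini-Hochberg adjustment over all genes tested, 2 of 44 genes were higher and 3 lower at an adjusted p under 0.05, or 11.4% together. Of all genes tested, 11.6% were higher and 12.4% lower, or 24% together. The median log2 fold change was -0.04 over the 44 genes and 0.04 over all genes, and 36 of 44 lay within 0.3 of 0. The median over the 44 genes was 0.02 without HF week 5 library 1, 0.03 with quantile normalization and -0.10 with median centring. By role among the 44 genes, the calls were 0 of 7 alpha subunits, 1 of 3 catalytic beta subunits and 0 of 4 other beta subunits. In the cap they were 1 of 6 ATPases, 2 of 3 other base subunits, 1 of 8 lid subunits and 0 of 3 cap chaperones. The same 5 genes are red in the plot of log2 fold changes. Centring each library on its median changed the split of calls over all genes from 1482 higher and 1580 lower to 1116 and 1869, and that of the 44 genes to 1 higher and 3 lower, without Psmd4.

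**Figure D2:**
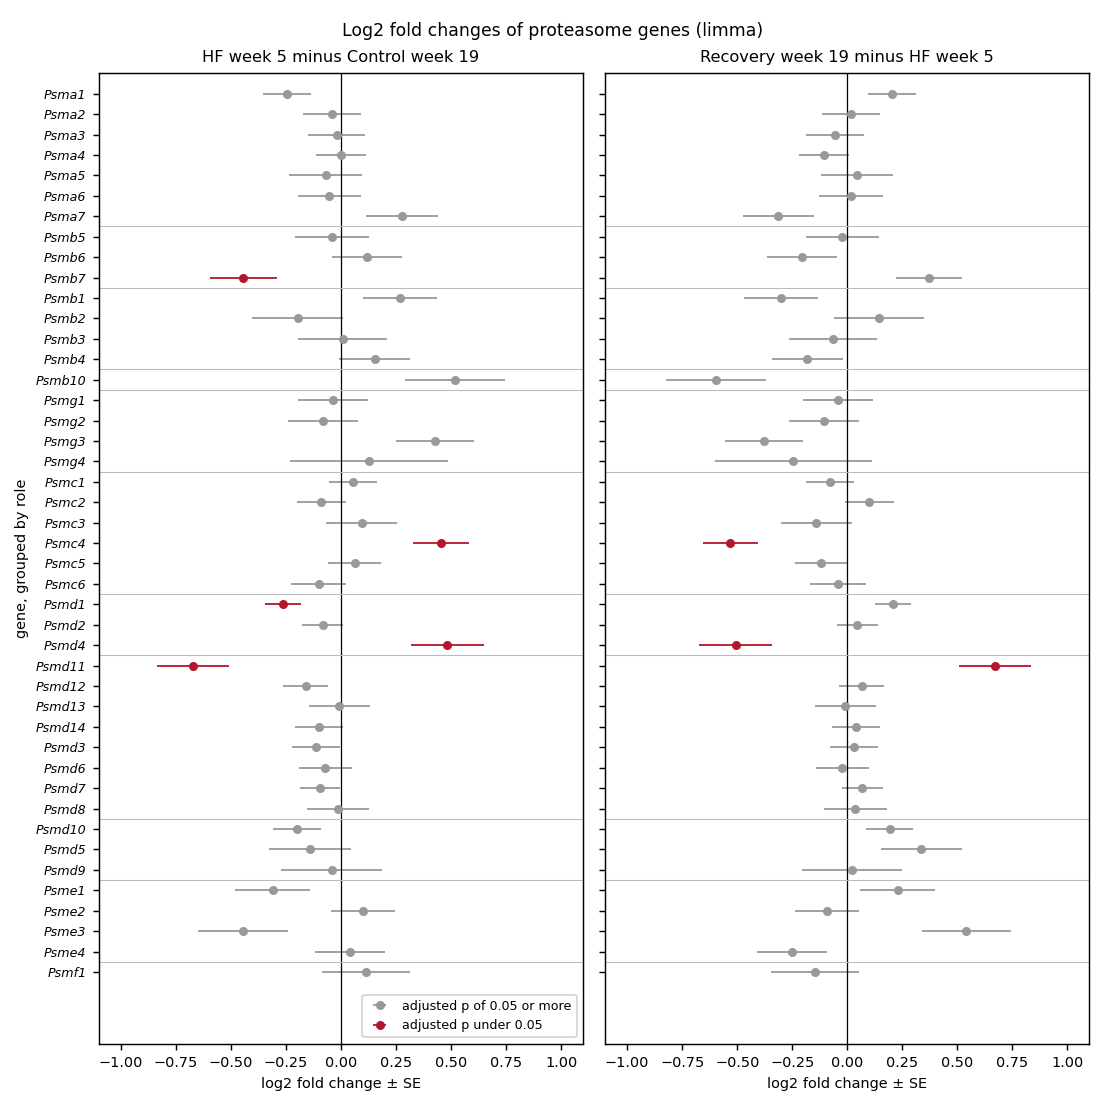
Log2 fold change on the log2(FPKM + 0.5) scale with its SE (x axis) for 44 proteasome genes grouped by role (y axis), HF week 5 minus Control week 19 on the left and Recovery week 19 minus HF week 5 on the right; red marks an adjusted p under 0.05 in limma. Both panels use the same 3 HF week 5 libraries; 5 genes are red on the left and 3 on the right.

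Psmd11 had the largest difference among the called genes. Its values were 9.91, 14.9 and 15.1 FPKM in the HF week 5 libraries and 20.1, 22.7, 21.7, 21.6 and 19.6 FPKM in the controls. All 3 HF libraries lay below all controls. The log2 fold change was -0.67 (SE 0.16, limma adjusted p = 0.00639). It ranged from -0.77 to -0.48 over 16 alternatives and kept an adjusted p under 0.05 in 15 of them (0.000205 to 0.0746 in limma). The call was lost without HF week 5 library 1, the lowest library.

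Psmb7 measured 132, 218 and 189 FPKM in HF week 5 and 235, 230, 237, 241 and 254 FPKM in the controls. The groups did not overlap, although HF library 2 came close. The log2 fold change was -0.44 (SE 0.15, limma adjusted p = 0.0394). The other catalytic genes were not called. Psmb5 measured 191, 290 and 275 FPKM against 243, 257, 245, 248 and 283 FPKM, with a log2 fold change of -0.04 (SE 0.17, limma adjusted p = 0.887), and Psmb6 measured 249, 286 and 278 FPKM against 239, 255, 235, 233 and 287 FPKM, with 0.12 (SE 0.16, limma adjusted p = 0.63). In both, the HF libraries lay on either side of the controls or among them. The difference between Psmb7 and its neighbours in the ring was not tested.

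Psmd1 measured 18.5, 23.3 and 22.6 FPKM in HF week 5 and 27.4, 26.5, 24.9, 26.1 and 23.9 FPKM in the controls, again without overlap. Its log2 fold change was small, at -0.26 (SE 0.08, limma adjusted p = 0.0254).

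Psmc4 rose from 82, 84.9, 77.3, 77.8 and 85.2 FPKM in the controls to 118, 116 and 101 FPKM in HF week 5. Psmd4 rose from 95.4, 106, 86.9, 92.2 and 103 FPKM to 140, 139 and 127 FPKM. For both, each HF library stood above each control. The log2 fold changes were 0.45 for Psmc4 (SE 0.13, limma adjusted p = 0.0143) and 0.48 for Psmd4 (SE 0.17, limma adjusted p = 0.0418).

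These calls rested on few libraries. Without HF week 5 library 1 none of the 5 passed (limma adjusted p from 0.0746 for Psmd11 to 0.326 for Psmb7), and over all genes 537 were then higher and 819 lower. Psmc4 passed in 15 of 16 alternatives, Psmd1 in 11, and Psmb7 and Psmd4 in 7 each. The log2 fold changes kept their direction in all of these. They ran from 0.39 to 0.54 for Psmc4, -0.33 to -0.16 for Psmd1, -0.60 to -0.24 for Psmb7 and 0.42 to 0.55 for Psmd4. Psmb7 was also lost without HF week 5 library 3 or any 1 of the 5 control libraries, Psmd4 without any 1 HF week 5 library or any of control libraries 1 to 4, and Psmd1 without control library 1, 2 or 4.

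**Figure D3:**
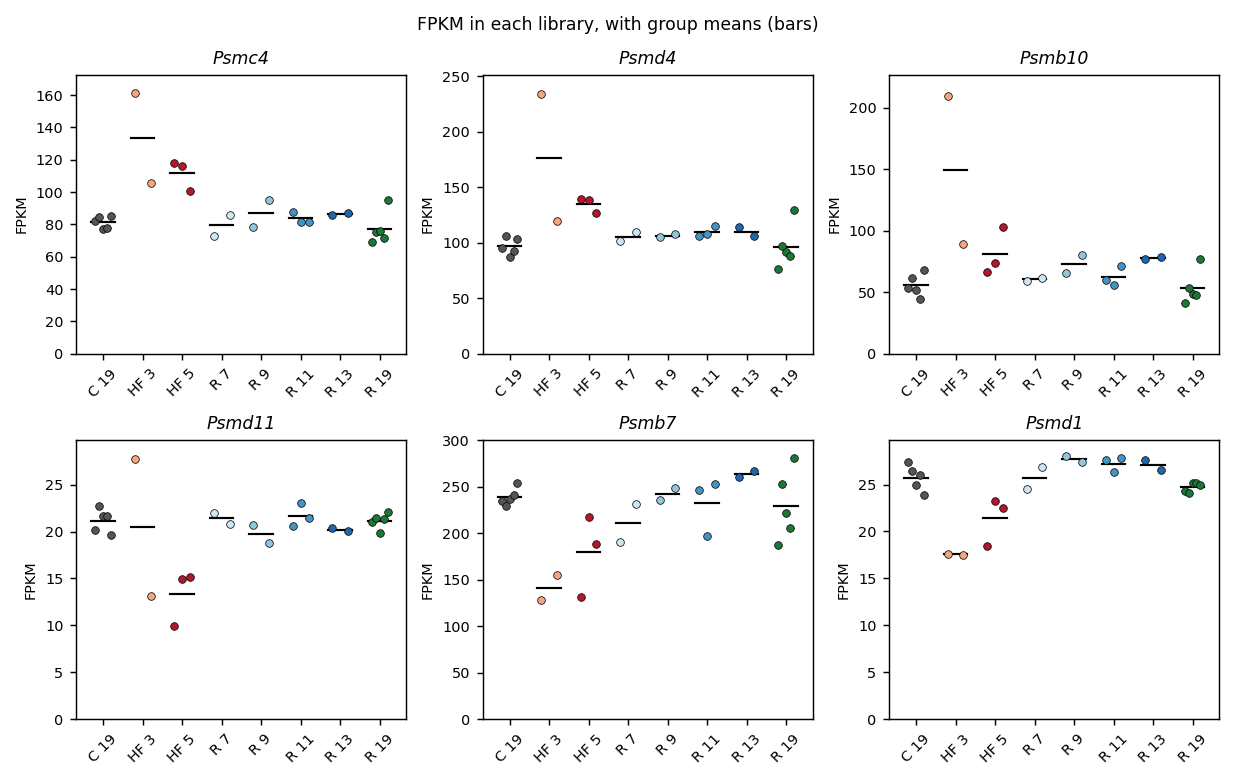
FPKM (y axis, from 0) of Psmc4, Psmd4, Psmb10, Psmd11, Psmb7 and Psmd1 in every library (points) of 8 groups (x axis: C control, HF heart failure, R recovery, with the study week), with bars at the group means. Psmc4 and Psmd4 are above the controls and Psmd11, Psmb7 and Psmd1 below them in all 3 HF week 5 libraries.

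Among the genes that did not pass, the HF week 5 libraries lay apart from the controls in a few more. Counting those called, 9 of 44 genes (20.5%) did not overlap between the groups, against 29.5% of all genes tested. Psmg3, which encodes a chaperone of core assembly, measured 13.6, 14.2 and 14.3 FPKM against 8.75 to 13 FPKM in the controls (log2 fold change 0.43, limma adjusted p = 0.0852). Psme3, the nuclear 11S activator, measured 14, 16.4 and 18.1 FPKM against 18.6 to 26.3 FPKM (-0.45, limma adjusted p = 0.119). Psma1, an alpha subunit, measured 75.7, 77.1 and 79.7 FPKM against 84.6 to 106 FPKM (-0.25, limma adjusted p = 0.107). Psmd10, a cap chaperone also known as gankyrin, was the ninth gene, at 6.67 to 7.52 FPKM in HF week 5 and 7.81 to 8.88 FPKM in the controls. With only the groups compared in the fit, Psmg3 and Psme3 passed, with 11.4% of the 44 genes and 25% of all genes called. Without the HF week 3 libraries in the fit, Psme3 and Psmb10 passed, with 15.9% and 34.4% called.

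The remaining beta subunit, Psmb10, replaces Psmb7 in the immunoproteasome that interferon induces. It measured 66.5, 73.5 and 103 FPKM in HF week 5 and 44.8 to 68.4 FPKM in the controls, with overlap at the lowest HF library (log2 fold change 0.52, SE 0.23, limma adjusted p = 0.103). The ratio of Psmb10 to Psmb7, chosen after the values were seen and not tested, was 1.64 and 0.574 in HF week 3, 0.504, 0.337 and 0.545 in HF week 5, 0.186 to 0.270 in the controls and 0.212 to 0.272 in Recovery week 19. Between them, it was 0.312 and 0.265 at Recovery week 7, 0.277 and 0.324 at week 9, 0.242 to 0.284 at week 11 and 0.295 and 0.293 at week 13. Leukocyte markers had summed to a median of 150 FPKM in the controls, 215 FPKM in HF week 3, 223 FPKM in HF week 5, 110 FPKM at Recovery week 7, 147 FPKM at week 9, 263 FPKM at week 11, 308 FPKM at week 13 and 201 FPKM at week 19, and their part in these ratios was not tested.

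The other activators and assembly genes kept overlapping groups at HF week 5. Psme1 and Psme2, the paired subunits of the interferon-inducible 11S ring, averaged 164 ± 36.9 and 107 ± 17.5 FPKM in HF week 5 (n = 3) against 200.3 ± 19.9 and 99.7 ± 13 FPKM in the controls (n = 5). Psme4, which encodes PA200, averaged 52.5 ± 10.1 against 50.7 ± 6.78 FPKM, and Psmf1 5.31 ± 0.602 against 4.89 ± 0.654 FPKM. Psmd14, the deubiquitinase of the lid that strips ubiquitin from the substrate, averaged 24 ± 0.755 against 25.9 ± 3.52 FPKM. The core chaperones Psmg1, Psmg2 and Psmg4 averaged 24.9 ± 5.28, 26.7 ± 8.06 and 73.8 ± 15.6 FPKM against 25.2 ± 2.63, 27.5 ± 3.19 and 67.1 ± 10.5 FPKM. Limma adjusted p-values of Psme1, Psme2, Psme4, Psmf1 and Psmd14 were 0.198, 0.657, 0.874, 0.715 and 0.538.

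The stretches just before the start sites of the genes that moved most in the cap are shown here so that their promoters can be compared. They are the 150 bases before the start in RefSeq's GRCm38.p6 windows, written 5′ to 3′ in the direction of the gene, with any CCAAT box on either strand (CCAAT or ATTGG, a common element of housekeeping promoters) in capitals.
Psmc4, chr7:28050093-28050242, minus strand: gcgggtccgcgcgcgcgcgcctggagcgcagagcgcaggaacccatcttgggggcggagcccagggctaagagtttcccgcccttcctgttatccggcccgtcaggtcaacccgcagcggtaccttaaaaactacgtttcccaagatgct
Psmd4, chr3:95042615-95042764, minus strand: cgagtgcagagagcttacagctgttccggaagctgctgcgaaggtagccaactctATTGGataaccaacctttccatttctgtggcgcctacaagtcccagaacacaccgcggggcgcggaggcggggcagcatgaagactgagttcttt
Psmd11, chr11:80428465-80428614, plus strand: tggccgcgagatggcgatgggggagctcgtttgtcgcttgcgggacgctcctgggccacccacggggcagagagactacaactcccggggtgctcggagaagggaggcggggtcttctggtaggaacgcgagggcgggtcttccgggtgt
Of the 3, only the Psmd4 stretch holds such a box. The whole windows run from 250 bases before to 50 bases after the start. In them, CCAAT on either strand was found in 12 of the 37 proteasome genes that have a window (32.4%). By window, this was 12 of 40 (30%), beside 37.4% of 32851 windows of all genes. The other 7 genes, Psmb7 among them, were not matched to a window. A match is only a description of the letters.

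In recovered hearts at week 19, Psmd11 was higher than at HF week 5, and Psmc4 and Psmd4 were lower. This made 1 gene higher and 2 lower of 44 (6.82%). Of all genes tested, 12.3% were higher and 12% lower, or 24.2% together. This comparison shares the HF week 5 libraries with the one against control, and the values of each are given side by side. Psmd11 measured 21, 21.4, 19.8, 21.4 and 22.1 FPKM in Recovery week 19, all above the HF libraries, with a log2 fold change of 0.67 (SE 0.16, limma adjusted p = 0.00641). Psmc4 measured 69.1, 75.6, 76, 71.8 and 94.9 FPKM, all below the HF libraries although library 5 came near, with -0.53 (SE 0.13, limma adjusted p = 0.0054). Psmd4 measured 76.1, 96.7, 91.6, 87.6 and 130 FPKM, and here library 5 overlapped with HF week 5 (-0.51, SE 0.17, limma adjusted p = 0.0328). Psmc4 passed in all 16 alternatives, Psmd11 in 15, failing without HF week 5 library 1, and Psmd4 in 7. The log2 fold changes ran from -0.62 to -0.47 for Psmc4, 0.48 to 0.77 for Psmd11 and -0.62 to -0.43 for Psmd4. Psmd4 was lost without any 1 of HF week 5 libraries 1 to 3 or of Recovery week 19 libraries 1 to 4, and without HF week 5 library 1 only Psmc4 remained. Without Recovery week 19 library 5, 6 genes passed. Of all genes tested, 12.1% and 25.5% were called in these fits, against 24.2% with every library. Median centring moved the split over all genes from 1567 higher and 1525 lower to 1808 and 1188, and of the 44 genes to 3 higher and 1 lower.

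The groups did not overlap for 4 of 44 genes (9.09%), against 26.7% of all genes tested. They were Psmd1, Psmd11 and Psme3, higher in recovery, and Psmc4. Psmd1 measured 24.1 to 25.2 FPKM over the 5 recovered hearts (log2 fold change 0.21, limma adjusted p = 0.0691), and Psme3 18.8, 25.4, 21.3, 24.1 and 30.1 FPKM (0.54, limma adjusted p = 0.0591). The catalytic genes in Recovery week 19 spread widely with their libraries. Psmb7 measured 187, 253, 222, 206 and 281 FPKM (log2 fold change 0.37, SE 0.15, limma adjusted p = 0.0807), Psmb5 184, 264, 235, 219 and 347 FPKM (-0.02, SE 0.17, limma adjusted p = 0.941) and Psmb6 179, 249, 230, 218 and 318 FPKM (-0.21, SE 0.16, limma adjusted p = 0.373). In each, library 1 was the lowest and library 5 the highest. Psmb10 went from 80.9 ± 19.3 FPKM in HF week 5 (n = 3) to 53.5 ± 13.6 FPKM (n = 5), with a log2 fold change of -0.60 (SE 0.23, limma adjusted p = 0.0609).

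No proteasome gene was called between Recovery week 19 and Control week 19, with 0 of 44 at an adjusted p under 0.05 in limma and 0 of 44 at an unadjusted p under 0.05. Few genes were called at all in that comparison, with 0.0235% of all genes tested higher and 0% lower after adjustment, and 2.88% called before it. All 44 log2 fold changes lay within 0.3 of 0, from -0.21 for Psme4 to 0.20 for Psmd5, a cap chaperone, and their standard errors ran from 0.07 to 0.31. The catalytic genes Psmb5, Psmb6 and Psmb7 had log2 fold changes of -0.06 (SE 0.15), -0.09 (SE 0.14) and -0.07 (SE 0.13). Fold changes were below 0 in 38 of 44 genes, with a median of -0.05 beside -0.01 for all genes. The median over the 44 genes was 0.02 without Recovery week 19 library 1, -0.12 without library 5 of that group and -0.01 without control library 5. A p that misses the threshold does not show that the levels were equal.

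Recovery week 7 was the first time sampled after the agents were stopped. At Recovery week 7 Psmd11 measured 22 and 20.8 FPKM, above all HF week 5 libraries and within the control range (log2 fold change against HF week 5 of 0.69, SE 0.20, limma adjusted p = 0.0307). Psmc4 measured 72.9 and 85.9 FPKM, below all HF week 5 libraries (-0.49, SE 0.16, limma adjusted p = 0.0424). They were the 1 higher and the 1 lower gene called of 44, against 8.05% of all genes tested higher and 6.75% lower. Over 13 alternatives the log2 fold change ran from 0.50 to 0.79 for Psmd11, called in 9, and from -0.61 to -0.37 for Psmc4, called in 6. Neither call held without Recovery week 7 library 1, without library 2 or without HF week 5 library 1, where 0 of 44 passed, nor when only those groups were fitted. The share of all genes called fell as well, from 14.8% to 3.57%, 2.98% and 6.49% in that order and to 1.52% with only those groups. Psmd4 measured 101 and 109 FPKM, Psmb7 191 and 232 FPKM and Psmd1 24.5 and 26.9 FPKM at this time, without a call. The catalytic genes Psmb5 and Psmb6 had log2 fold changes of -0.10 (SE 0.21) and -0.29 (SE 0.20). Psmb5 measured 212 and 254 FPKM and Psmb6 200 and 246 FPKM.

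In the middle of recovery the genes of the proteasome lay slightly above control as a body, without a call for any of them. Over the mean of Recovery weeks 11 and 13 against Control week 19, 43 of 44 log2 fold changes were above 0, with a median of 0.14 beside 0.00 for all genes. The median was 0.18 for the 19 core genes and 0.11 for the 24 cap genes. In limma, 0 of 44 passed at an adjusted p under 0.05 and 2 of 44 at an unadjusted p under 0.05, where 0.125% of all genes tested were higher and 0.0157% lower after adjustment and 13.1% were called before it. The 2 genes were Psmc1, an ATPase (0.24, limma adjusted p = 0.286), and Psme2 (0.28, limma adjusted p = 0.337). Psmb10 had the largest difference, 0.32 (limma adjusted p = 0.498). By library, the median over the 44 genes was 0.11, -0.06 and 0.21 at week 11 and 0.23 and 0.17 at week 13, so that week 11 library 2 lay below the control mean. In these libraries the 10 most abundant genes took 30.9% to 37.4% of all FPKM, against 14.6% to 15.6% in the controls, and their part was not tested. As a share of all FPKM the 44 genes were lower, at 0.366% to 0.414% against 0.502% to 0.553%. Fibroblast markers summed to 457 to 755 FPKM at week 11 and 421 to 539 FPKM at week 13, above every control. Leukocyte markers summed to 217 to 324 FPKM and 253 to 364 FPKM, against 110 to 221 FPKM in the controls. Cardiomyocyte markers summed to 24958 to 26980 FPKM and 30609 to 34622 FPKM. The part of these sums was not tested either. The median over the 44 genes was 0.04 after quantile normalization and 0.17 after median centring.

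The gene levels through the whole course are laid out in the heat map. At Recovery week 9 Psmb5, Psmb6 and Psmb7 averaged 272 ± 28, 261 ± 13 and 242 ± 8.84 FPKM (n = 2), and at week 13 they averaged 305 ± 20, 301 ± 14.7 and 264 ± 4.16 FPKM (n = 2). Psme1 and Psme2 had their highest group means at week 13, 266 ± 10.7 and 135 ± 1.33 FPKM. Psmd14 ran from 22.2 ± 2.4 FPKM at HF week 3 to 29.3 ± 1.52 FPKM at Recovery week 13, and Psmf1 from 3.60 ± 2.64 to 5.40 ± 0.15 FPKM at the same times.

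**Figure D4:**
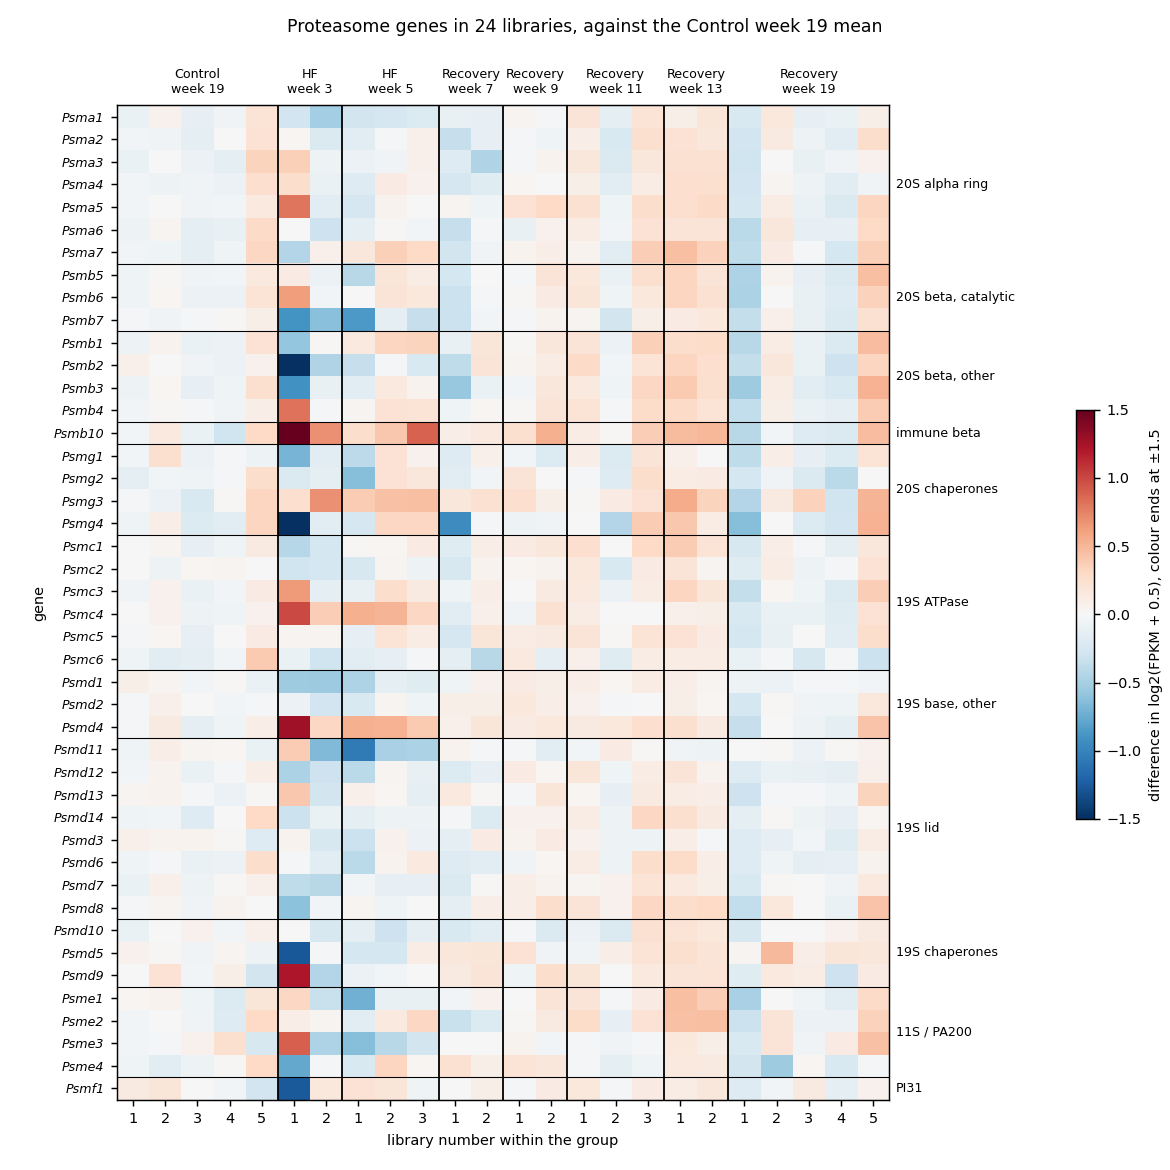
Difference from the Control week 19 mean in log2(FPKM + 0.5) (colour, ends at ±1.5) for 44 proteasome genes grouped by role (rows) in 24 libraries (columns, numbered in each group). HF week 3 library 1 shows the strongest colours in both directions, and Recovery week 19 libraries 1 and 5 are pale blue and pale red across most rows.

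HF week 3, within the treatment, showed larger differences, and 8 of its 12 calls were lost without library 1, the one that stands apart. With both libraries, 23.1% of all genes tested were higher than Control week 19 in limma and 27.6% lower, or 50.7% together. Of the 44 genes, 3 were higher and 9 lower, or 27.3% together. Without library 1, 0 were higher and 5 lower, 4 of them the same genes, and with library 1 alone 11 were higher and 14 lower. These were 11.4% and 56.8% of the 44 genes, beside 30.2% and 62.9% of all genes tested in the same fits. In these fits a lone library is assumed to vary like the other groups. The 4 genes that were lower both with and without library 1 were Psmd1, Psmb7, Psma1 and the lid subunit Psmd7, and Psmd11 was the added one.

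Psmd1 measured 17.6 and 17.5 FPKM, below every control and every other library analysed, with a log2 fold change of -0.54 (SE 0.09, limma adjusted p = 0.000145) and of -0.54 without library 1. Psmb7 measured 128 and 155 FPKM, again below every control (-0.76, SE 0.17, limma adjusted p = 0.00142, and -0.62 without library 1, limma adjusted p = 0.0404). Both genes were thus low at each of the treatment weeks sampled. The other catalytic genes were not called, with Psmb5 at 277 and 240 FPKM (log2 fold change 0.02) and Psmb6 at 386 and 242 FPKM (0.29).

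The genes that rose at HF week 3 differed widely between the libraries. Psmb10 measured 210 and 89.1 FPKM (log2 fold change 1.30, limma adjusted p = 0.000475), and 0.68 without library 1 (limma adjusted p = 0.0589). Psmd4 measured 234 and 119 FPKM (0.79, limma adjusted p = 0.00226), and 0.31 without library 1 (limma adjusted p = 0.214). Psmc4 measured 161 and 106 FPKM (0.68, limma adjusted p = 0.000816), and 0.37 without library 1 (limma adjusted p = 0.0674). In all 3, library 2 too lay above every control. Psmd11, low at HF week 5, measured 27.7 and 13.2 FPKM, above all controls in library 1 and below all of them in library 2.

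Of the other 5 genes called lower at HF week 3, 3 were far lower in library 1 than in library 2. Psmg4, a core chaperone, measured 11.7 and 59.3 FPKM (log2 fold change -1.31, limma adjusted p = 0.0125), and -0.16 without library 1 (limma adjusted p = 0.772). Psmb2, a structural beta subunit, measured 40.3 and 94.1 FPKM (-1.06, limma adjusted p = 0.00117), and -0.45 without library 1 (limma adjusted p = 0.135). Psmd5 measured 2.45 and 6.57 FPKM (-0.65, limma adjusted p = 0.0165), and -0.02 without library 1 (limma adjusted p = 0.956). In library 2 Psmg4 and Psmd5 lay inside the control range, and Psmb2 below it. The ATPase Psmc1 measured 71.5 and 80.5 FPKM and the lid subunit Psmd12 34.4 and 38.8 FPKM, close together and below every control in both libraries, and neither was called without library 1. Psme3 measured 41.6 and 15.9 FPKM and Psmf1 1.74 and 5.47 FPKM, in opposite directions between the libraries.

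Beside the subunits, a list of 26 genes held the proteasome's loosely bound partners, the ubiquitin genes, the ubiquitin-activating enzymes, the shuttles that carry ubiquitin-tagged proteins and the factors that switch on subunit genes. Of these, 24 were tested. At HF week 5, 1 was higher than control and 7 were lower in limma, with a median log2 fold change of -0.15, where 11.6% of all genes tested were higher and 12.4% lower, with a median of 0.04. Rps27a, which encodes ubiquitin fused to a ribosomal protein, was the higher one (0.67, SE 0.24, limma adjusted p = 0.0484). Adrm1, the second ubiquitin receptor of the cap, averaged 60.2 ± 8.94 FPKM in HF week 5 (n = 3) and 87.0 ± 13.2 FPKM in the controls (n = 5) (-0.52, SE 0.15, limma adjusted p = 0.0153). Txnl1, a thioredoxin bound to the cap, averaged 28.7 ± 1.19 and 41.4 ± 3.82 FPKM (-0.52, SE 0.16, limma adjusted p = 0.0252). Nfe2l1, the factor that raises subunit genes when proteasome activity is short, averaged 97.0 ± 24.4 and 136 ± 11.7 FPKM (-0.51, SE 0.13, limma adjusted p = 0.00738). The other 4 lower genes ran from -0.45 to -0.35. They were Ubqln4 and Rad23b (shuttles), Nfe2l2 (the factor of the oxidative stress response) and Uba1 (the main ubiquitin-activating enzyme). HF week 5 and the controls overlapped for Rps27a, Adrm1, Ubqln4 and Uba1, and not for Txnl1, Nfe2l1, Rad23b and Nfe2l2. None of the 24 genes was run through the alternatives in any comparison. Whether their calls rest on HF week 5 library 1 was not tested.

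Against HF week 5, 8 of the 24 genes tested from the partner list were higher at Recovery week 19 and 0 lower, with a median of 0.14. The HF libraries are again shared with the comparison against control. Over all genes tested the shares were 12.3% and 12%, with a median of -0.04. They were the 7 genes lower in HF and Ddi2, the protease that activates Nfe2l1. Ddi2 rose from 0.615 ± 0.186 FPKM (n = 3) to 2.05 ± 0.851 FPKM (n = 5), by 1.12 on the log2 scale (SE 0.31, limma adjusted p = 0.0123), at a level close to the lower limit for testing. Adrm1 rose by 0.58 (limma adjusted p = 0.00898), Txnl1 by 0.56 (limma adjusted p = 0.0158) and Nfe2l1 by 0.49 (limma adjusted p = 0.00985). Nfe2l1 had reached 135 ± 5.87 FPKM by Recovery week 7 (n = 2, log2 fold change against HF week 5 of 0.50, limma adjusted p = 0.0405). That week had 2 of 24 higher and 0 lower, against 8.05% and 6.75% of all genes tested. Between Recovery week 19 and Control week 19, 0 of 24 were called in limma, and likewise 0 of 24 for Recovery weeks 11 and 13. At HF week 3, 3 were higher and 9 lower with library 1 included, against 23.1% and 27.6% of all genes tested.

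Nfe2l1 and Nfe2l2 bind the antioxidant response element, whose core is TGACNNNGC, and the matches to these letters are shown because both factors were lower at HF week 5. On either strand the core was found in the windows of 6 of 37 proteasome genes (16.2%). By window, this was 6 of 40 (15%), beside 12.4% of 32851 windows of all genes. Each match (capitals) is given with 10 bases on either side, 5′ to 3′ on the strand that carries it, from RefSeq's GRCm38.p6.
Psmb5, chr14:54618024-54618052, minus strand: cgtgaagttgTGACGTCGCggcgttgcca
Psmb6, chr11:70525338-70525366, plus strand: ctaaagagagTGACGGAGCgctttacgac
Psmd9, chr5:123228149-123228177, plus strand: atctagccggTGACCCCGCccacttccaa
Psmc6, chr14:45329587-45329615, minus strand: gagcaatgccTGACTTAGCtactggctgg
Psme4, chr11:30771758-30771786, minus strand: gctcttctggTGACGCTGCagccgcagcg
The match in Psmd12 lies too close to the end of its window to be shown. Of these genes, none was called at HF week 5, where Psmb5 and Psmb6 had log2 fold changes of -0.04 and 0.12. At HF week 3, with both libraries, Nfe2l1 and Nfe2l2 were also called lower (-0.54 and -0.68). Of the genes with a match only Psmd12 was called then, lower at 34.4 and 38.8 FPKM. A link between the factors and these genes was not tested. The core was not found in the windows of Psmc4, Psmd4 and Psmd11, which says only that these letters are not there.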

How the data were processed

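Expression values of mouse hearts from 8 of the 9 labelled groups were analysed. According to the methods and the submitters' processing notes, the authors aligned paired-end reads to the mouse genome (MGSCv37, mm9) with TopHat2 and calculated the deposited FPKM with Cuffdiff. The gene annotation, strand setting and scaling between libraries are not given in the sources used here. FPKM hold no read counts, so depth is known only in relative terms, and reads shared with pseudogenes of proteasome genes could have been split in the authors' counting.

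Columns were matched to groups by week. Of the single-sample columns 5 were not used, as they name Control week 5, a group with 4 labelled samples. The planned comparisons with Control week 5 were not run and Control week 19 took their place. Recovery week 9 has 2 columns for 3 labelled samples.

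Genes that averaged 0.5 FPKM or more were fitted as log2(FPKM + 0.5), which understates the changes of low genes, with limma 3.58.1 in R 4.3.3 (a mean for each of 8 groups, 16 residual degrees of freedom, eBayes with trend, two-sided). Benjamini-Hochberg adjustment ran over all 12759 genes, and a gene was called at an adjusted p under 0.05. The procedure was tested on simulated data. Summaries and figures used pandas 2.3.3, numpy 2.4.6 and matplotlib 3.10.9 in Python 3.11.15.

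Alternatives were pseudocounts of 0.1 and 1, no filter, a filter of 1 FPKM, median centring, quantile normalization, only the groups compared, an unadjusted p, and each library left out. A fit without the HF week 3 libraries was added after seeing the data. Full statistics were given for Psmb5, Psmb6 and Psmb7 and up to 5 called genes in each direction, and levels for the regulators and chaperones. Genes that did not overlap between groups, Psmd11 at HF week 3 and the Psmb10 to Psmb7 ratio were chosen after their values were seen. The members, the partner list and the marker lists were chosen with earlier results of these data known.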

Additional observations from a re-analysis of the deposited data

Results flagged for a closer look

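In 88 tests of a far sample, one for each of the 44 genes in each group of 5 libraries, 11 exceeded Dixon's critical value of 0.71 (gap to the nearest library over the whole range), where chance gives about 1 in 20, or 4.4. Control week 19 library 5 held 8 of the 11, with the highest value for 7 genes and the lowest for 1. The ratios for the high genes were 0.723 for Psma3 (84.1 FPKM against 60.1 to 66.7 in the other libraries), 0.868 for Psma4 (106 against 83.3 to 86.2), 0.795 for Psma5 (62.5 against 54.2 to 55.9), 0.820 for Psma7 (204 against 149 to 159), 0.805 for Psmc6 (52.9 against 35.7 to 39.1), 0.809 for Psmd6 (61.5 against 47.8 to 50.5) and 0.7104 for Psmg2 (32.9 against 24.7 to 27.1). The low gene was Psmd3, with 0.755 (65.7 against 75.8 to 79.1 FPKM). The libraries of a gene are shared by all genes, so these are not independent. In Control week 19 library 2, Psmg1 reached 0.856 (29.8 against 23.6 to 24.5 FPKM). In Recovery week 19, Psmc4 in library 5 reached 0.733 (94.9 against 69.1 to 76.02 FPKM) and Psmd5 in library 2 reached 0.714 (9.55 against 6.82 to 7.60 FPKM).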

How the results depend on the processing

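The number of proteasome genes called, 5 at HF week 5 against control, became 3 with no filter, 8 with quantile normalization, 9 at an unadjusted p and 0 to 5 when a library was left out. For Recovery week 19 against HF week 5, 3 became 6 with quantile normalization, 8 at an unadjusted p, 7 without the HF week 3 libraries in the fit and 1 to 6 with a library left out. For HF week 3, 12 became 19 with quantile normalization, 19 at an unadjusted p and 5 to 25 with a library left out. For Recovery week 7, 2 became 1 with no filter, 1 with median centring, 4 with quantile normalization, 0 with only the groups compared, 4 at an unadjusted p, 4 without the HF week 3 libraries and 0 to 2 with a library left out. For Recovery weeks 11 and 13 the count of 0 became 2 at an unadjusted p. The share of all genes called, in the same order, went from 24% to 13.6%, 26.6%, 36.5% and 10.6% to 28.6% at HF week 5, from 24.2% to 27.5%, 36.8%, 34.4% and 12.1% to 25.5% for Recovery week 19, from 50.7% to 48.9%, 57.1% and 30.2% to 62.9% at HF week 3, from 14.8% to 6.84%, 14%, 18.8%, 1.52%, 29.8%, 24.4% and 2.98% to 16.9% at Recovery week 7, and from 0.141% to 13.1% for Recovery weeks 11 and 13. Over the other alternatives for counts, 73 stayed within 1.5 times the count reported, all those of Recovery week 19 against control included. Among them were the 7 calls at HF week 5 against control without the HF week 3 libraries, where 34.4% of all genes were called.

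Over the genes and comparisons run through all alternatives, those that changed sign were uncalled comparisons of Psmb5, Psmb6 and Psmb7. Psmd11 at HF week 3, not called and not among these, was higher than control in library 1 and lower in library 2. With quantile normalization Psmb5 had 0.027 at HF week 5 against control, and for Recovery weeks 11 and 13 Psmb5 had -0.016, Psmb6 -0.0024 and Psmb7 -0.12. With median centring Psmb5 had 0.036 in Recovery week 19 against HF week 5 and -0.045 at HF week 3. With a library left out, Psmb5 ran from -0.15 to 0.15 at HF week 5, -0.21 to 0.091 in Recovery week 19 against HF week 5, -0.19 to 0.041 against control, -0.084 to 0.12 at HF week 3 and -0.28 to 0.035 at Recovery week 7, and Psmb6 from -0.20 to 0.0094 in Recovery week 19 against control and -0.041 to 0.63 at HF week 3. Where no value shows the cause, the cause was not tested. No paired analysis was possible because the columns carry library numbers and not the letters of the labelled samples. Groups of 2 or 3 libraries and an unknown read depth limit all of these comparisons.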
